A study of Mus musculus with 30 samples.

Results

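The carbonic anhydrases Car2, Car3, Car4, Car8, Car12, Car13 and Car14 were followed in RNA-seq of polyadenylated RNA from mouse secondary iPSCs. They are 7 of the 16 carbonic anhydrases in a table of 22477 genes, and the set was chosen by the FPKM of Car4, which increased late in differentiation and was lower with dox at all 4 start times. The time course and the dox comparisons are therefore given below as a description. The members were taken by gene symbol, and all 7 are in the table.

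Carbonic anhydrases convert carbon dioxide and water to bicarbonate and a proton, and in doing so they couple metabolism to the pH on both sides of the cell membrane. The mouse family divides by place. Car2, Car3 and Car13 work in the cytosol, Car4 is held on the outer face of the membrane by a GPI anchor, and Car12 and Car14 span the membrane with the catalytic domain outside the cell. Car8 has lost a zinc ligand of the active site, does not catalyse the reaction and is known for binding an inositol trisphosphate receptor in neurons. The extracellular enzymes work beside bicarbonate and lactate transporters, which carry the acid and base that the reaction makes.

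All samples come from iPSCs that carry dox-inducible transgenes for Oct4, Sox2, Klf4 and cMyc (OSKM), a GFP reporter at Nanog and an always active nuclear RFP, and no group lacks these alleles. They were kept on fibroblast feeders in serum/LIF and moved to gelatin before withdrawal. In the time course, cells held in 2i/LIF were moved to N2B27 medium without 2i/LIF, and RNA was taken at 0, 24, 36, 48, 60, 72 and 96 h of withdrawal. In the other 8 conditions, cells withdrawn for 0, 24, 48 or 96 h were re-seeded and spent 48 h in serum/LIF alone (–dox) or in serum/LIF to which 2 µg/ml dox was added (+dox). Each of the 15 conditions had 2 samples, 30 in all. All RNA-seq samples are labelled as this iPSC line, and the methods do not say whether the re-seeded RNA-seq samples shared a plate with the fibroblast feeders of the colony assay. The dox conditions differ in dox and in the transgenes that it turns on, which cannot be told apart here.

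Every value is an FPKM, a count of fragments scaled by transcript length and by library size, in which the authors combined both samples of a condition. How the library size was set is not given in the sources used here. The study describes its replicates in general as biological, and how the RNA-seq cultures were kept apart is not given in the sources used here. The spread between samples is therefore unknown, no difference below carries a test, and neighbouring levels cannot be said to differ beyond their error. A gene was called higher or lower where 1 value was 2-fold or more over the other and reached 1 FPKM, and the first count of called members in each comparison stands beside the share of all genes called in the same way. No read counts are given. Low values of genes with 1 long transcript fall on even steps, which give a rough depth. A 2 kb gene at 1 FPKM stood at 28.5 to 37.8 steps at all timepoints of withdrawal and after re-seeding at 48 and 96 h, and at 85.5 to 99.3 steps after re-seeding at 0 and 24 h. As a check of the labels, 10 naive pluripotency genes, among them Zfp42, Esrrb and Nanog, had a sum of 1184 FPKM at the start and of 47.7 FPKM after 96 h. The 0 h timepoint stands apart in its fibroblast markers. The 10 genes of that list summed to 822.0 FPKM there, 77.3 FPKM at 24 h and 22.5 to 42.5 FPKM later, against 6.30 FPKM in the cells re-seeded at 0 h –dox.

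Upstream sequence of the 3 membrane-bound catalysts is shown because these genes share a side of the membrane yet followed different courses. Car4 and Car14 were called higher over withdrawal and Car12 was not. RefSeq promoter windows on GRCm38.p6 were found for 3 of the 7 members. The 250 bases before each annotated start are given 5′ to 3′ on the gene's strand, and capitals mark any match, on either strand, to an octamer ATGCAAAT, a HIF core ACGTG, a GC box GGGCGG or a TATA box TATAAA. No motif contains another.
Car4, chr11:84957504-84957753, plus strand: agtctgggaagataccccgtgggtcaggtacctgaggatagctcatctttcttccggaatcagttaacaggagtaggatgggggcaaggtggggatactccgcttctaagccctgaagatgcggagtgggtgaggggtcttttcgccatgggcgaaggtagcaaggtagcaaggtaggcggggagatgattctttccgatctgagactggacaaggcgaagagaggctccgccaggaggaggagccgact
Car14, chr3:95904686-95904935, minus strand: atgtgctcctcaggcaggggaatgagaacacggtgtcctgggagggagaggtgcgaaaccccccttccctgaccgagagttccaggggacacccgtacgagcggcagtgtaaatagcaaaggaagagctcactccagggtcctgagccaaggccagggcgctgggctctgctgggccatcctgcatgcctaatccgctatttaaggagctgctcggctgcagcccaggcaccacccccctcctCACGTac
Car12, chr9:66713436-66713685, plus strand: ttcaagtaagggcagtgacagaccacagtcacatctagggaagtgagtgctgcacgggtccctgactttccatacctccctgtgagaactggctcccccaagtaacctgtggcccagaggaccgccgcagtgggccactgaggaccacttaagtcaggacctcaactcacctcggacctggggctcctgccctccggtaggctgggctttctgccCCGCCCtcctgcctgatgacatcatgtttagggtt
The Car4 window holds none of the 4 motifs in these letters. That of Car14 holds 1 HIF core on the reverse strand, 7 bases before the RefSeq start, and that of Car12 holds 1 GC box on the reverse strand, 35 bases before it. Gene positions given below come from Gencode, whose starts can differ. The Gencode start of Car14, 95904691, lies inside its window, so most of this HIF core lies past that start. Of all 32851 windows of this length, 1.60% hold the octamer, 16.6% the HIF core, 32.7% the GC box and 12.4% the TATA box.

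Car4, on chromosome 11 of mm10 from 84957786 to 84966044, went from the fourth of the 7 members at 0 h to the most abundant from 36 h on. Its values were 1.35, 9.19, 66.9, 78.4, 236.1, 263.6 and 470.4 FPKM at 0, 24, 36, 48, 60, 72 and 96 h, higher at each timepoint than at the one before. The ratio of each value to the one before varied. Car4 was 6.80-fold higher at 24 h than at 0 h, 7.28-fold higher at 36 h than at 24 h and 3.01-fold higher at 60 h than at 48 h. It was 1.17-fold higher from 36 to 48 h, 1.12-fold from 60 to 72 h and 1.78-fold from 72 to 96 h. The first and last intervals are longer than the others, and with 1 value per condition a stepwise course was not tested. The log2 ratio of 96 h to 0 h was 8.44, and the 0 h value stood at about 26.5 steps of the depth scale.

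Car14 and Car12, the membrane-spanning enzymes, stayed far below Car4. Car14, on chromosome 3 from 95897768 to 95904691, held 0.329, 2.33, 8.39, 10.2, 8.22, 5.35 and 6.95 FPKM over the same timepoints, with its highest value at 48 h. Its log2 ratio of 96 h to 0 h was 4.40, from a 0 h value of only about 8.78 steps. Car12, on chromosome 9 from 66713686 to 66766845, is induced by low oxygen in many cells. It held 0.871, 0.252, 0.252, 0.586, 0.994, 0.929 and 1.66 FPKM, so it dipped at 24 and 36 h and was highest at 96 h. Its log2 ratio of 96 h to 0 h was 0.93, under the 2-fold threshold.

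Among the cytosolic enzymes, Car2 and Car3 were higher from 24 h on and Car13 followed a dip. Car2, a fast and widely expressed form, lies on chromosome 3 from 14886273 to 14900770. It held 7.94, 38.3, 41.0, 42.9, 78.6, 82.9 and 70.0 FPKM, which places it above every other member at 24 h and second to Car4 from 36 h on. Car2 took 4.82-fold of its increase in the first 24 h and 1.83-fold between 48 and 60 h, the same 12 h interval in which Car4 changed 3.01-fold. Car3, a slow enzyme best known from muscle and fat, lies on the same chromosome from 14863512 to 14872523. It held 0.220, 1.48, 1.94, 3.45, 4.77, 3.83 and 2.39 FPKM and was highest at 60 h. Its 0 h value rests on about 5.75 steps, so its log2 ratio of 3.45 between 96 h and 0 h is rough. Car13, from 14641727 to 14663002, held 10.52, 3.25, 4.28, 4.73, 7.72, 9.97 and 8.88 FPKM. It had the highest value of the members at 0 h, was 3.23-fold lower at 24 h, and near its first level again at 72 h, with a log2 ratio of -0.24 at 96 h against 0 h.

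Car8, on chromosome 4 from 8143362 to 8239041, took the opposite course to Car4. Its values were 7.73, 2.26, 0.794, 0.201, 0.0673, 0.0338 and 0.0511 FPKM. It was thus as abundant as Car2 at 0 h and fell to about 2.03 to 3.94 steps at 60 to 96 h, where the depth no longer resolves a level. The log2 ratio of 96 h to 0 h, -7.24, rests on such a value.

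**Figure D1:**
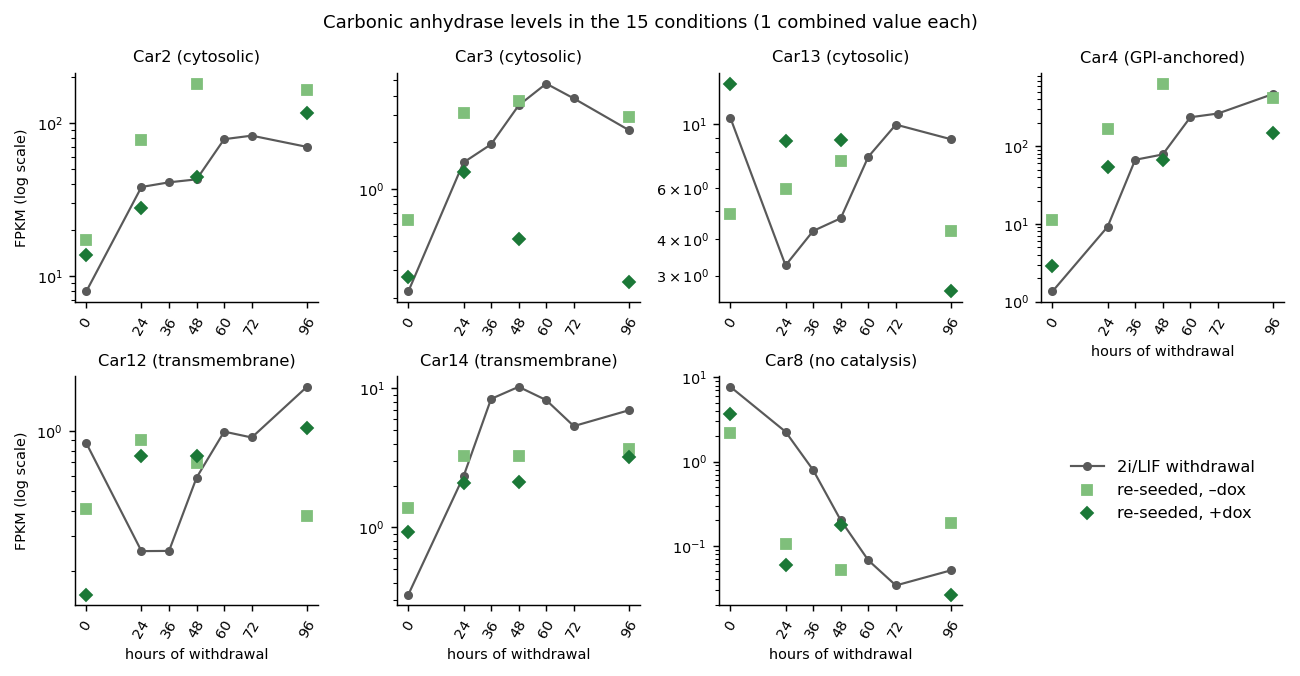
Levels of the 7 carbonic anhydrases in FPKM on a log axis against hours of 2i/LIF withdrawal. Lines join the 7 timepoints, and squares (–dox) and diamonds (+dox) stand at the withdrawal time after which cells were re-seeded for 48 h. Car4 climbs from 1.35 to 470.4 FPKM while Car8 falls from 7.73 to 0.0511 FPKM.

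In all, 4 of the 7 members were called higher at 96 h than at 0 h, against 16.8% of the 13394 genes that reached 1 FPKM, and 1 was called lower, against 16.4%. Car2, Car3, Car4 and Car14 were the higher ones and Car8 the lower. The median log2 ratio was 3.14 over the members and -0.02 over all these genes. The members were chosen with these values known, so the excess over the background shows the choice. The fibroblast markers move with this comparison, from 822.0 to 31.7 FPKM in sum, and their part in it was not tested. From 24 h, where that sum was 77.3 FPKM, 4 members were again called higher at 96 h (20.5% of all genes) and 1 lower (16.3%), but they were in part different genes. Car4 (51.2-fold) and Car14 (2.99-fold) were higher from either start and Car8 was lower from either. Car2 (1.83-fold) and Car3 (1.61-fold) no longer reached 2-fold, while Car12 (6.61-fold) and Car13 (2.73-fold) did.

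The sum of the 7 members was higher at 96 h than at 0 h, and its make-up changed. Most of that difference was Car4, at 1.35 FPKM at 0 h and 470.4 FPKM at 96 h. Car4 is the gene by which the set was chosen, so the sum shows that choice. The 7 members summed to 29.0, 57.0, 123.6, 140.5, 336.5, 366.6 and 560.3 FPKM over the 7 timepoints. FPKM is a level per transcript length, so members can be added and compared. At 0 h Car13 made up 36.3% of the sum, Car2 27.4%, Car8 26.7% and Car4 4.67%. At 24 h Car2 held 67.1%, and at 96 h Car4 held 83.9%, Car2 12.5%, Car13 1.58% and Car8 0.00912%. The highest value was thus that of the cytosolic Car2 at 24 h and of the extracellular Car4 from 36 h on. At 0 h, where the fibroblast markers summed to 822.0 FPKM, Car13, Car2 and Car8 lay close together, and their order is not resolved. The RNA is of whole cultures, in which fewer cells of a type and less RNA per cell cannot be told apart.

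**Figure D2:**
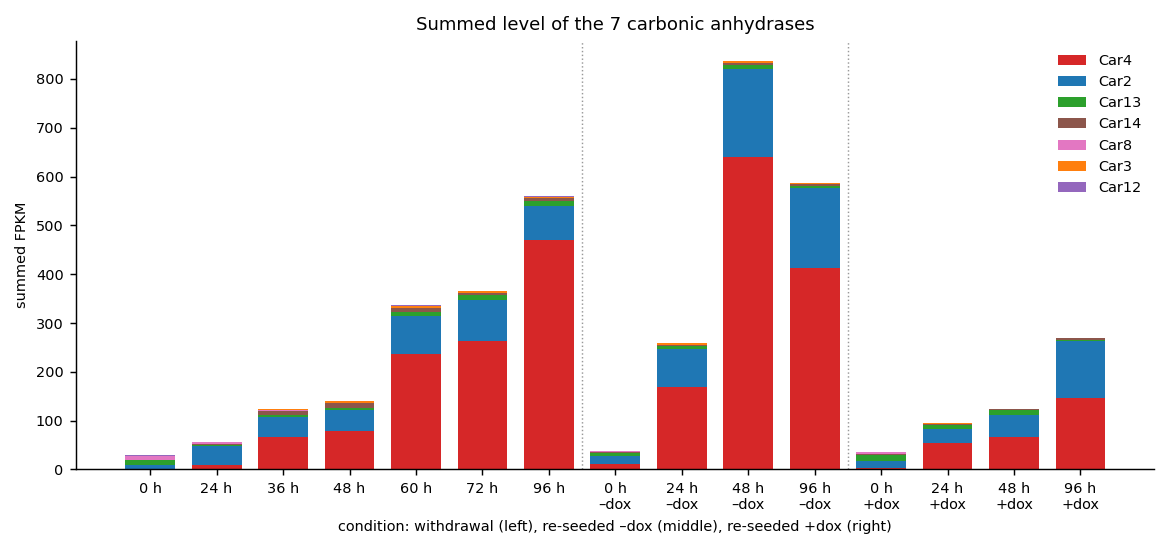
Summed FPKM of the 7 members in each of the 15 conditions, stacked by gene, with dotted lines between the time course, the –dox and the +dox conditions. Car4 (red) and Car2 (blue) make up most of the sum from 24 h on, and the –dox sum of 836.5 FPKM at 48 h is the highest.

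The question of the re-seeded conditions was how cells that had left pluripotency respond to serum/LIF alone and to OSKM. For Car4, the –dox values were 11.4, 168.9, 639.8 and 412.3 FPKM in cells re-seeded at 0, 24, 48 and 96 h, and the +dox values were 2.83, 54.7, 67.4 and 146.5 FPKM. The value of 639.8 FPKM in 48 h –dox was its highest in any of the 15 conditions. The +dox value was lower at each start time, by 4.01-fold, 3.09-fold, 9.49-fold and 2.81-fold in that order, and the log2 ratios were -2.00, -1.63, -3.25 and -1.49. In order of start time the +dox values still increased, as the –dox values did up to 48 h.

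Car2 differed with dox at the 2 middle start times. Its –dox values were 17.2, 77.5, 181.5 and 164.1 FPKM and its +dox values 13.7, 27.8, 44.8 and 116.6 FPKM at 0, 24, 48 and 96 h. The log2 ratios were -0.33, -1.48, -2.02 and -0.49, and only those at 24 and 48 h reached 2-fold. As for Car4, the difference was widest at 48 h and the +dox values increased with start time.

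Car3 was lower with dox at each start time. It held 0.633, 3.07, 3.66 and 2.89 FPKM in –dox and 0.271, 1.28, 0.479 and 0.252 FPKM in +dox. The log2 ratios were -1.22, -1.26, -2.93 and -3.52, called from 24 h on, since the 0 h values are under 1 FPKM. In 96 h +dox the Car3 value stood at about 8.01 steps, and in 48 h +dox at about 12.1. Unlike Car4 and Car2, its +dox values did not increase with start time.

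The remaining members gave few calls after dox. Car13 held 4.88, 5.98, 7.48 and 4.28 FPKM in –dox and 13.8, 8.74, 8.83 and 2.64 FPKM in +dox, and its log2 ratios passed from 1.5 at 0 h through 0.55 and 0.24 to -0.69 at 96 h. Only the value at 0 h was called, as higher. Car12 held 0.406, 0.898, 0.696 and 0.378 FPKM in –dox and 0.153, 0.751, 0.751 and 1.04 FPKM in +dox. It was called higher at 96 h, with a log2 ratio of 1.45 and a +dox value barely over the minimum of 1 FPKM. Car14 held 1.37, 3.24, 3.28 and 3.68 FPKM in –dox and 0.923, 2.08, 2.13 and 3.23 FPKM in +dox, with log2 ratios between -0.64 and -0.19 and no call. Car8 held 2.21, 0.105, 0.0516 and 0.186 FPKM in –dox and 3.72, 0.0588, 0.175 and 0.0263 FPKM in +dox, and only the cells re-seeded at 0 h held over 1 FPKM of it.

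By counts, 5 of the 7 members reached 1 FPKM at 0, 24 and 48 h and 6 at 96 h. At 0 h 1 of the 5 was called higher in +dox (3.62% of all genes tested) and 1 lower (5.61%). At 24 h 0 were higher (2.87%) and 3 lower (3.40%), namely Car2, Car3 and Car4. At 48 h 0 were higher (6.56%) and the same 3 were lower (6.46%). At 96 h 1 was higher (6.67%) and 2, Car3 and Car4, were lower (11.1%). The median log2 ratio of the members that reached 1 FPKM was -0.33, -1.26, -2.02 and -0.59 in order of start time, and that of all genes lay between -0.02 and 0.05. Whether the response of a gene differed between start times was not tested, since no replicate values are given.

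**Figure D3:**
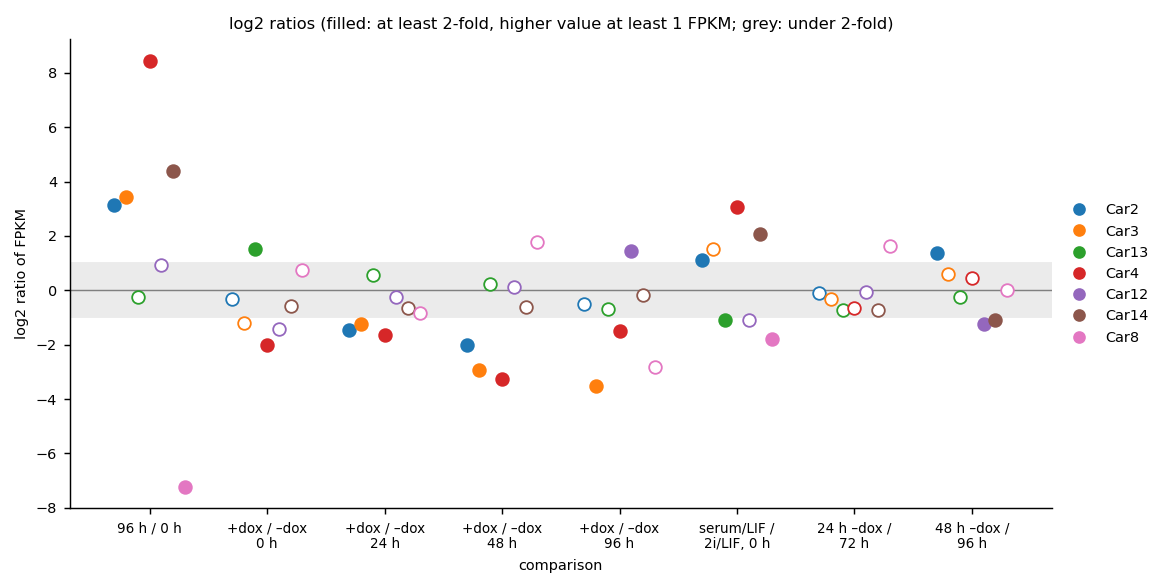
Log2 ratios of FPKM for the 7 members (colours) in 8 comparisons of 2 conditions. Filled points are called, open points are not, and the grey band marks ratios under 2-fold. At 24 and 48 h the called members, Car2, Car3 and Car4, all lie below the band, and at 96 h against 0 h the same genes lie above it with Car14.

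Set beside the cells from which they were re-seeded, the +dox and –dox cultures parted in different ways for Car4, Car2 and Car3. Cells at 48 h of withdrawal held 78.4 FPKM of Car4. After 48 h more in serum/LIF –dox the value was 8.16-fold higher, whereas in +dox it was 1.16-fold lower, close to where it started. Car2 behaved alike at this start, 4.23-fold higher in –dox and 1.04-fold higher in +dox than its 42.9 FPKM before re-seeding. Car3 did not, since it was 1.06-fold higher in –dox and 7.21-fold lower in +dox than its 3.45 FPKM. For the cells re-seeded at 24 h, Car4 was 18.4-fold higher in –dox and 5.95-fold higher in +dox than at the start. For those re-seeded at 96 h it was 1.14-fold lower in –dox and 3.21-fold lower in +dox than the 470.4 FPKM it had reached. The 0 h start gave 8.41-fold higher in –dox and 2.10-fold higher in +dox. The +dox value of Car4 was thus above its start at 0 and 24 h, near it at 48 h and below it at 96 h.

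**Figure D4:**
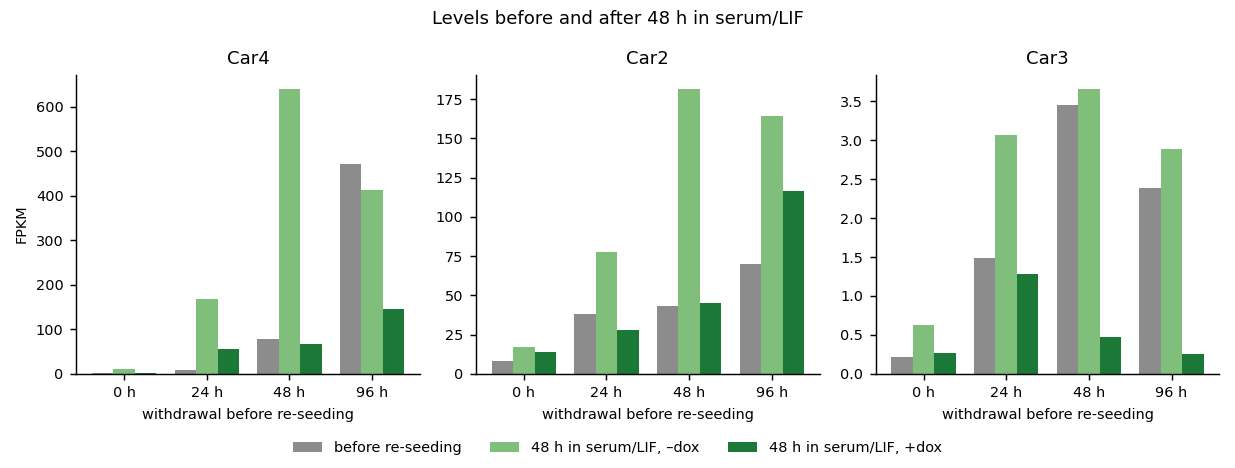
FPKM of Car4, Car2 and Car3 before re-seeding (grey) and after 48 h in serum/LIF –dox (light green) or +dox (dark green), by hours of withdrawal before re-seeding. At 48 h the +dox bars of Car4 and Car2 stand near the grey bars while the –dox bars stand 8.16-fold and 4.23-fold above them.

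Serum/LIF differs from 2i/LIF in the signals that hold cells pluripotent. The choice of the set used both Car4 values in the comparison of 0 h –dox with the 0 h timepoint, so this comparison is also a description. These conditions also differ in 48 h of culture and in the fibroblast markers given above, which cannot be told apart from the medium. In serum/LIF 3 of the 5 members that reached 1 FPKM were called higher, against 12.0% of 13096 genes, and 2 lower, against 10.1%. Car4 was 8.41-fold higher (1.35 to 11.4 FPKM), Car14 4.16-fold higher (0.329 to 1.37 FPKM) and Car2 2.17-fold higher (7.94 to 17.2 FPKM). Car8 was 3.49-fold lower (7.73 to 2.21 FPKM) and Car13 2.16-fold lower (to 4.88 FPKM). The summed naive markers were at 1046 FPKM in the cells re-seeded at 0 h, against 1184 FPKM at the 0 h timepoint. The cells re-seeded at 0 h were also sequenced more deeply. The part of the fibroblast RNA in the lower values of Car8 and Car13 was not tested. The comparison shares its 0 h value with the time course and its –dox value with the dox comparison.

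Return to serum/LIF without dox was also set beside withdrawal for the same total time. Cells re-seeded at 24 h –dox held every member within 2-fold of the 72 h timepoint where it reached 1 FPKM. The re-seeded cells were sequenced more deeply. Of the 5 members that reached 1 FPKM, 0 were higher (5.40% of all genes) and 0 lower (4.89%). Car2 was at 77.5 and 82.9 FPKM, Car4 at 168.9 and 263.6 FPKM. Cells re-seeded at 48 h –dox differed from the 96 h timepoint in 3 members. Car2 was 2.59-fold higher (181.5 against 70.0 FPKM), 1 of the 6 members that reached 1 FPKM, against 6.36% of all genes. Car12 was 2.39-fold lower (0.696 against 1.66 FPKM) and Car14 2.12-fold lower (3.28 against 6.95 FPKM), 2 of the 6 against 6.51%. Car4 was 1.36-fold higher, under the threshold.

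Markers of other cells moved with Car4 in part. The summed FPKM of 7 extraembryonic endoderm markers was 5.88 at 0 h and 32.3 at 96 h, 4.05 to 35.0 in –dox and 5.18 to 15.8 in +dox. Most of it was Dab2, an endocytic adaptor that other cells also use, which went from 3.53 to 26.2 FPKM over withdrawal. In cells re-seeded at 48 h, Dab2 stood at 21.8 FPKM –dox against 5.19 FPKM +dox. Of the others, Gata4 went from 1.44 to 2.35 FPKM between 0 and 96 h, Gata6 from 0.744 to 1.10, Amn from 0.0802 to 1.46 and Sox7 from 0.0851 to 0.869. The secreted products Afp and Ttr did not pass 0.128 and 0.318 FPKM in any condition. The 7 neurectoderm markers went from 6.41 to 35.5 FPKM in sum over withdrawal, and at the 48 h start they reached 22.8 FPKM –dox against 17.5 FPKM +dox. Nearly all of the sum at the 48 h start was Nes, at 22.2 FPKM –dox and 16.7 FPKM +dox. It was the only 1 of the 7 to reach 1 FPKM there. The 10 primitive streak and mesoderm markers were between 2.09 and 15.3 FPKM in sum, except for 65.0 FPKM in 96 h –dox, where the fibroblast sum was also 162.9 FPKM. Most of the 65.0 FPKM was Hand1 (38.2 FPKM) and Msx2 (24.9 FPKM), with T at 0.185 FPKM. Most of that fibroblast sum was Col1a2, Col1a1 and Col5a2. At the 48 h start the primitive streak and mesoderm sum was 13.4 FPKM –dox against 3.30 FPKM +dox. There 4 of the 10 markers reached 1 FPKM –dox and 1 did so +dox. T stood at 5.90 FPKM –dox, its highest value in the 15 conditions, against 0.390 FPKM +dox. Of 4 blood markers found, which would accompany red cell Car2, none passed 1 FPKM but Hba-a1 in 96 h –dox (1.78 FPKM). The part of any of these cells in the levels of Car4 and Car2 was not tested.

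The gene cluster on chromosome 3 places Car13, Car1, Car3 and Car2 in this order within 259 kb. Car3 and Car2, whose starts lie 22.8 kb apart, were both called higher at 96 h (log2 ratios of 3.45 and 3.14) and both lower in 48 h +dox (-2.93 and -2.02). Car13, whose start lies 245 kb from that of Car2 in the same orientation, had -0.24 and 0.24 in these comparisons. Car1, the red cell form that lies between them, was listed at 0 in 13 of 15 conditions and did not pass 0.0566 FPKM. Beyond the cluster, within 100 kb, Lrrcc1, E2f5 and 1810022K09Rik had log2 ratios of 0.58, 0.41 and -0.62 at 96 h against 0 h, all under 2-fold. Around Car4, the neighbours Ggnbp2, Pigw, Znhit3 and Usp32 lay between -0.44 and 0.17, and Myo19 was lower, at -1.68. Across the 15 conditions Pearson's r of log2(FPKM + 1) was 0.64 between Car2 and Car3 but 0.92 between Car2 and Car4, which lie on different chromosomes, and -0.37 between Car2 and Car13.

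**Figure D5:**
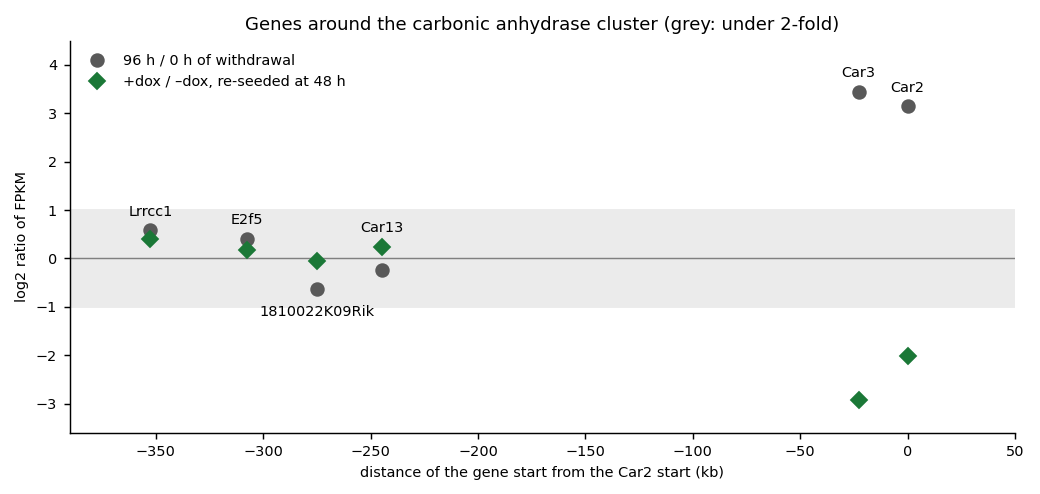
Log2 ratios of FPKM at 96 h against 0 h (grey circles) and in 48 h +dox against –dox (green diamonds) for the genes around the cluster that reached 1 FPKM, by distance of the gene start from that of Car2 in kb. Car3 and Car2 lie outside the grey band of under 2-fold, and the other genes shown lie inside it.

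The genes whose pattern was most like that of Car4 over the 15 conditions, among 9066 others that reached 10 FPKM, were Arl4c (r = 0.98), Cd276 (0.96), Pcbp4 (0.96), Ddr1 (0.95) and Fgfr2 (0.95). Arl4c, a small GTPase, went from 3.12 to 89.8 FPKM over withdrawal, and at the 48 h start it was at 103.1 FPKM –dox against 41.1 FPKM +dox. It was also the gene most like Car2, with r = 0.95, ahead of Ssbp3 and Nnat (0.93 each). Car2 itself ranked 23rd for Car4. The genes most like Car14 were Zfp467 (0.93), Kif21a (0.93) and Stard7 (0.92), and those most like Car13 reached only 0.78 (Rnf130), 0.76 (Stmn3) and 0.75 (Ftl1). These correlations describe conditions that share cells and processing.

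The other 9 carbonic anhydrases stayed low. The highest values were 5.06 FPKM for Car11, 4.75 FPKM for the mitochondrial Car5b, 4.52 FPKM for Car7 and 2.84 FPKM for the hypoxia-induced Car9, and Car1, Car5a, Car6, Car10 and Car15 did not pass 1.37 FPKM. At 96 h against 0 h, 16.8% of all genes were called higher and 16.4% lower. Of the other carbonic anhydrases, 2 of the 6 that reached 1 FPKM were called higher (Car7 and Car11) and 2 lower (Car5a and Car6). Of 16 genes listed for bicarbonate transport by family (Slc4, Slc26 and Cftr), 8 reached 1 FPKM, of which 2 were higher and 3 lower. Slc4a5, a sodium bicarbonate cotransporter, fell from 19.9 to 0.572 FPKM (log2 ratio -5.12) and Slc4a11 from 9.79 FPKM by a log2 ratio of -2.91, while Slc26a6, an anion exchanger, stood at 12.3 and 6.76 FPKM (-0.86). Of 14 proton and lactate transport genes in the table, 10 reached 1 FPKM, of which 4 were higher and 0 lower. Among them the lactate exporter Slc16a3 went from 24.3 to 92.0 FPKM (1.92) with a highest value of 187.2 FPKM at 36 h, and Emb, a membrane partner of lactate transporters, from 23.2 to 140.5 FPKM (2.60). Hvcn1, a proton channel, stood at 7.99 and 5.04 FPKM (-0.66). In 48 h +dox against –dox, 6.56% of all genes were called higher and 6.46% lower. Car2, Car3 and Car4 were lower there, and 0 of 10 proton and lactate transport genes were called in either direction. At such shares a count of 0 of 10 does not set these genes apart from all genes. There 1 of 8 genes of the bicarbonate list was higher and 2 were lower. The medians were -0.05 for the proton and lactate genes and 0.07 for the bicarbonate list. Of the other carbonic anhydrases 3 reached 1 FPKM there, of which 1 (Car11) was higher and 0 lower, with a median of 0.16. The median of -2.02 given above covers the 5 members that reached 1 FPKM in a set chosen by the course of Car4.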

How the data were processed

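Per the labels and the study's methods, the authors mapped reads to mm10 with TopHat2 2.0.14, used Cufflinks 2.2.1 to quantify Gencode M4 transcripts no shorter than 200 bp and ran Cuffdiff. The deposited table holds FPKM values, 1 per gene and condition, in which the authors combined 2 samples. Between-library normalization is not given in the sources used here. Another 5 columns hold the authors' calls of dynamic and dox-responsive genes and were not used. As values per replicate are missing from the table used, no test, SD or interval was computed, and a limma fit considered in the design could not be run.

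Ratios had nothing added. A call needed at least 2-fold and 1 FPKM in the higher value. Depth steps came from genes with 1 transcript of at least 2.5 kb. Step counts of a member use its longest transcript in Gencode M21 (mm10), which also gave the positions. Likeness is Pearson's r of log2(FPKM + 1). A total of 4 rows sharing a symbol were left out of single-gene use. The members, lists and named genes (by list, by the 3 largest changes among genes of at least 10 FPKM, or by likeness) were chosen with earlier results of these data known. The ratios to the starting timepoint, the 24 h start and the marker genes given by name were chosen after values were seen. Calls were tried with other added values, minima, folds and scaling. Python 3.11.15, numpy 2.4.6, pandas 2.3.3 and matplotlib 3.10.9 were used. Only the call rule and the median-ratio scaling were tested on simulated data.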

Additional observations from a re-analysis of the deposited data

Results flagged for a closer look

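The direction of the dox difference changed between start times for 2 members. Car13 had a log2 ratio of +dox to –dox of 1.5 in cells re-seeded at 0 h and -0.69 in those re-seeded at 96 h, and only the first reached 2-fold. Car12 had -1.41 at 0 h, where both values were under 1 FPKM, and 1.45 at 96 h, where the +dox value was 1.04 FPKM. In 96 h –dox, the fibroblast markers summed to 162.9 FPKM and the mesoderm markers to 65.0 FPKM, against 40.0 and 15.3 FPKM in 96 h +dox. Most of the 162.9 FPKM was Col1a2 (86.0 FPKM), Col1a1 (33.2 FPKM) and Col5a2 (21.3 FPKM), while Dcn (0.791 FPKM) and Lum (0.0605 FPKM) were low. Most of the 65.0 FPKM was Hand1 (38.2 FPKM) and Msx2 (24.9 FPKM), and only 2 of the 10 mesoderm markers reached 1 FPKM. The part of cells that express these genes, and the difference between start times itself, were not tested.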

How the results depend on the processing

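No called member changed direction under the alternatives of added value, minimum, fold and scaling. Median-ratio scaling or 0.1 FPKM added changed no count of called members. The median-ratio factors lay between 0.990 and 1.03, so this scaling could hardly move a 2-fold call. No paired analysis was possible because the table gives 1 combined value per condition, and for the same reason no replicate could be left out. Counts of called members that moved by over 1.5 times are given below. The comparison and the share of all genes called in the same setting follow in parentheses. With 1 FPKM in both values, 2 members were higher and 0 lower (96 h against 0 h), 0 higher and 1 lower (dox at 96 h) and 1 lower (48 h –dox against 96 h). With a minimum of 5 FPKM, 0 were higher and 1 lower (dox at 96 h, 4.95% and 6.62%). The comparison of 48 h –dox against 96 h gave 1 lower (3.13%). With a minimum of 0.5 FPKM, 2 were lower (dox at 0 h, 7.35%). With no minimum, 3 were lower (dox at 0 h, 17.5%) and 1 higher (dox at 48 h, 13.9%). The comparison of 24 h –dox against 72 h gave 1 higher (18.7%). With 1 FPKM added, 0 were higher (dox at 96 h, 4%) and 1 lower (serum/LIF against 2i/LIF, 6.88%). The comparison of 48 h –dox against 96 h gave 0 lower (2.86%). At 1.5-fold, 2 were higher (dox at 0 h, 11.6%) and 3 lower (24 h –dox against 72 h, 12.5%). The comparison of 48 h –dox against 96 h gave 2 higher (13.9%). At 3-fold, 0 were higher (dox at 0 h, 1.1%) and 1 lower (dox at 24 h, 1.11%). Dox at 96 h gave 0 higher and 1 lower (2.56% and 6.16%), and serum/LIF against 2i/LIF 1 lower (5.31%). The comparison of 48 h –dox against 96 h gave 0 higher and 0 lower (2.69% and 2.59%). With 24 h in place of 0 h as the start, chosen after seeing the data, 4 were higher (20.5% of all genes) and 1 lower (16.3%), with Car12 and Car13 in place of Car2 and Car3. Over all genes, the number called per comparison and direction was 365 to 2255, and 131 to 1754 with 1 FPKM added, 141 to 1324 with a minimum of 5 FPKM, 198 to 1259 with 1 FPKM in both values, 530 to 2723 with a minimum of 0.5 FPKM, 1827 to 4911 with none, 1054 to 3404 at 1.5-fold and 93 to 1457 at 3-fold. Of the 5 genes most like Car4, 3 were kept with 0.1 FPKM added, 4 with a minimum of 1 FPKM and 1, Arl4c, with Spearman's correlation. Depth limits Car8 after 48 h and Car3 at 0 h, which rest on few steps.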

Other observations

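Targets of the hypoxia response, of which Car9 and in many cells Car12 are members, were described by a list of 14 genes written from general knowledge. In cells re-seeded at 0 h, 0 were called higher and 6 lower in +dox than in –dox, against 3.62% and 5.61% of all genes tested, with a median log2 ratio of -0.94 against 0.05. Slc2a1, the main glucose transporter, stood at 73.5 FPKM –dox against 33.0 FPKM +dox, and Bnip3, a mitophagy receptor, at 88.9 against 13.3 FPKM. Car9 stood at 2.84 against 1.03 FPKM. The –dox cells themselves differed from the 0 h timepoint, with 5 called higher (12.0% of all genes), 0 lower (10.1%) and a median of 0.31. At that timepoint Slc2a1 stood at 33.5 FPKM, Bnip3 at 31.4 FPKM and Car9 at 2.21 FPKM. At 24, 48 and 96 h the numbers called lower were 2, 2 and 1 (3.40%, 6.46% and 11.1% of all genes). At 48 h 2 were called higher (6.56%). In the time course 5 were called higher (16.8%) and 1, Kdm3a, lower (16.4%) at 96 h against 0 h, with a median of 0.60. Slc2a1 went from 33.5 to 160.2 FPKM, Bnip3 from 31.4 to 77.8 FPKM, and Kdm3a from 31.4 to 10.0 FPKM. All 14 genes reached 1 FPKM in each of these comparisons except dox at 24 h, with 13. The list was not compared with other lists, and no cause was tested.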
